A study of Mus musculus with 12 samples.

Results

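The genes described here are 10 that mark the endothelial cell, the cell that lines blood vessels: Pecam1, Cdh5, Kdr, Flt1, Tek, Tie1, Emcn, Vwf, Esam and Cldn5. They were taken as the rows of the deposited gene count table whose name equals one of these symbols, which found 10 of the 10 among 23358 rows. All 10 were kept by the filter on low counts that left 16190 genes for testing, and all 10 had counts in each of the 12 libraries.

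Expression was measured by mRNA sequencing of frontal bone, a skull roof bone taken here with its coronal and frontonasal sutures and the adjoining nasal bone, from mice at postnatal day 3. The 4 groups were wild type C57BL/6, FGFR2C342Y/+ on C57BL/6, wild type BALB/c and FGFR2C342Y/+ on BALB/c, with 3 samples each. The mutant mice carry 1 copy of Fgfr2, a fibroblast growth factor receptor gene, with the C342Y protein change of Crouzon syndrome, a disorder of early skull suture fusion, and are called mutants below. The labels name no Cre, transgene or drug in any group, give no sex, and do not say whether a sample was 1 animal or a pool, so p-values measure the spread between these samples. All C57BL/6 samples carry one flow cell name in their descriptions and all BALB/c samples another, so strain and flow cell cannot be told apart.

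Vessels in growing bone bring oxygen and precursor cells and run close to the bone-forming front. Endothelial growth is driven by vascular endothelial growth factor (VEGF) acting on the receptor encoded by Kdr, while Flt1 encodes a second VEGF receptor that binds the ligand tightly and can act as a decoy. Vessel stability depends on the angiopoietins and the receptor encoded by Tek, with Tie1 as its partner. Endothelial cells are joined by VE-cadherin (Cdh5), PECAM-1 (Pecam1), the adhesion molecule ESAM (Esam) and the tight junction protein claudin-5 (Cldn5). Emcn encodes endomucin, a sialomucin of capillary and venous endothelium, and Vwf encodes von Willebrand factor, the clotting protein stored in endothelial granules and also made by megakaryocytes.

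The 10 genes lie on 8 chromosomes, with coordinates given as the authors' table has them, on mm10 per the submitters' processing notes. Kdr (5:75933270-75978428) and Flt1 (5:147562196-147725988) are on chromosome 5, and Tek (4:94739300-94874939) and Tie1 (4:118471191-118489849) are on chromosome 4. Pecam1 is at 11:106654218-106715281, Cdh5 at 8:104101625-104144502, Emcn at 3:137341078-137431069, Vwf at 6:125552963-125686677, Esam at 9:37528089-37538319 and Cldn5 at 16:18776847-18778262. The GENCODE M21 antisense gene Gm29682 overlaps Cdh5, and since the strand setting of the counting is not given in the sources used here, reads of the 2 genes cannot be told apart. In that annotation no gene overlaps any of the other 9.

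Promoter sequence was available here for 6 of the 10 genes from the RefSeq table of GRCm38.p6. The 250 bases before the start site are shown for Kdr, Flt1, Tek and Cldn5, the genes with an entry that passed a test between groups below. Both strands were searched for 2 core sequences bound by ETS factors, a family that acts on endothelial genes, namely AGGAAG and CGGAAG, and for the forkhead core TGTTTAC and the GATA core AGATAA. Capitals mark the matches.
Kdr (5:75978456-75978705, minus strand): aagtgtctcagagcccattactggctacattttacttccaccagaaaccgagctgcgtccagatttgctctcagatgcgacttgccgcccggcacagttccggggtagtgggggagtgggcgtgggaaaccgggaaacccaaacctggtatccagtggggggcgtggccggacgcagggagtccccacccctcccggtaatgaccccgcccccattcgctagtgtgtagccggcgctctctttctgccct
Flt1 (5:147726012-147726261, minus strand): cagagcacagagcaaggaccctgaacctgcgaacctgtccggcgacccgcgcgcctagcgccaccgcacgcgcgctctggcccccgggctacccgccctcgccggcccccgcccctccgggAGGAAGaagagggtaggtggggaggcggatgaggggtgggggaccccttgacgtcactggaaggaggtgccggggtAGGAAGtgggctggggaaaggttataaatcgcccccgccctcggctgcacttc
Tek (4:94739039-94739288, plus strand): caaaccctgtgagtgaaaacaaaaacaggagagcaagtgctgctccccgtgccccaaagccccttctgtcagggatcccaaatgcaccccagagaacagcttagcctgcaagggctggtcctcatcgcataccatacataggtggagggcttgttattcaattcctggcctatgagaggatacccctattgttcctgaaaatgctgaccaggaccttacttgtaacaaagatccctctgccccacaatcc
Cldn5 (16:18776597-18776846, plus strand): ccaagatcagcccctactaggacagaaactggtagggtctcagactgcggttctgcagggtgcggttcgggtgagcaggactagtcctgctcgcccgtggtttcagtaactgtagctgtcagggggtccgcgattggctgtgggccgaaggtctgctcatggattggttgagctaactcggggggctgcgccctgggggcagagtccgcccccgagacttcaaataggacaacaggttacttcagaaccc

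AGGAAG was found in 3 of the 6 promoters, those of Flt1 with 2 matches, Emcn with 2 and Tie1 with 1, against 29.5% of the 32851 promoters in the table. CGGAAG was found in that of Tie1 alone, against 13.6% of all promoters. TGTTTAC, held by 3.17% of all promoters, and AGATAA, held by 9.99%, were in 0 of the 6. GC content ran from 40.8% in Emcn to 70.4% in Flt1. Among the receptor genes Kdr, Flt1 and Tek, only the Flt1 window held a match.

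The libraries held 27181658 to 46521546 gene counts. In C57BL/6 the mutant and wild type libraries also differed in tissue content. Summed over 7 tested olfactory and ciliated epithelium markers, the level was 134 to 234 CPM (the count as a share of library depth, scaled by the trimmed mean of M values, TMM) in C57BL/6 wild type, 84.0 in mutant replicate 4, and 2.81 to 4.08 in the other 8 libraries. Over 8 osteoblast markers the sum was 107620 to 188260 CPM in C57BL/6 wild type against 206280 to 249000 CPM in C57BL/6 mutants. Most of this sum was type I collagen RNA, with means of 89219 CPM for Col1a1 and 68019 CPM for Col1a2 in C57BL/6 wild type. C57BL/6 wild type replicate 1 stood apart with the 107620 CPM, where replicates 2 and 3 had 185200 and 188260 CPM, and it also had the lowest Pecam1, Cdh5, Kdr, Flt1, Tie1, Emcn and Esam of its group. BALB/c mutant replicate 16 stood apart with 420 CPM of 7 skeletal muscle markers and 415 CPM of 5 Schwann cell markers, where the other 2 BALB/c mutants had at most 26.1 and 29.5 CPM.

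Cdh5 was the most abundant of the 10 transcripts per length, at 36.7 ± 4.16 (SD, n = 12) RPKM (CPM divided by coding length in kilobases, computed here from TMM-scaled counts). Pecam1 followed at 33.7 ± 4.11 RPKM (SD, n = 12). Emcn, Tie1, Esam and Cldn5 lay close together, at means of 22.1, 21.1, 21.1 and 20.8 RPKM, and Kdr had 15.4 ± 2.15 RPKM (SD, n = 12). Tek, Flt1 and Vwf were the lowest, at means of 6.92, 6.39 and 5.66 RPKM. Neighbours in this order overlapped in their range over libraries, except that each library had more Kdr (12.3 to 20.3 RPKM) than Tek (5.75 to 8.47 RPKM). Within a library, Pecam1 exceeded Emcn in 12 of 12, while Tie1 exceeded Esam in 6 of 12. Vwf varied most over the libraries, with a highest level 2.62 times the lowest, and Tie1 least, at 1.33 times. Each gene had at least 730 counts in each library. All deposited counts are even, and whether both reads of a pair were counted is not given in the sources used here, so the number of sequenced fragments may be smaller than the counts.

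**Figure D1:**
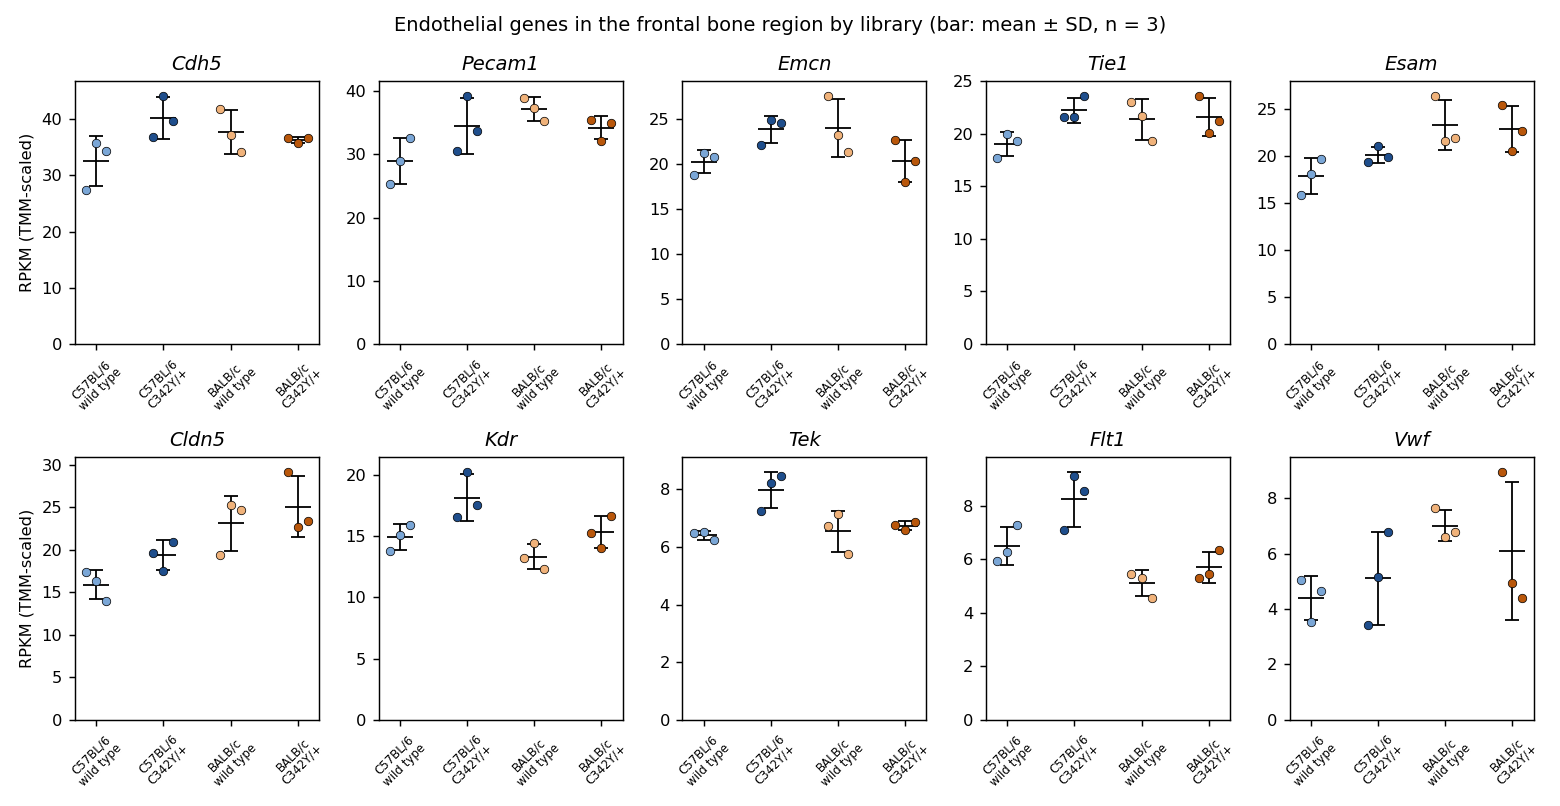
Level of each of the 10 endothelial genes by library, in RPKM from TMM-scaled counts (linear axis from 0), for the 4 groups of 3 samples on the x axis. Points are libraries and bars the mean ± SD; Tek sits higher in all 3 C57BL/6 mutants (7.26 to 8.47) than in the C57BL/6 wild types (6.23 to 6.51), and the mean of Flt1 is lower in each BALB/c group than in either C57BL/6 group.

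The first comparison asked how the mutation changed expression on C57BL/6. Of the 4 receptor genes, Kdr, Flt1 and Tek rose in C57BL/6 mutants, by 1.21- to 1.27-fold, and Tie1 did not pass. None of the 10 genes fell. These 3 of 10 compare with 23.9% of all genes tested that passed in this contrast and 11.3% that passed and were higher (12.6% passed and were lower). The log2 difference was above 0 for 10 of 10, against 49.3% of all genes, and its median was 0.27 against -0.004 over all genes. At an unadjusted p under 0.05 there were 8 of 10, against 39.2% of all genes. The 10 genes were read from the same 6 libraries and are not independent of each other. In bulk tissue, more endothelial cells and more of these RNAs per cell cannot be told apart.

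Among the VEGF receptors, Kdr stood at 75.2, 82.3 and 86.6 CPM in the C57BL/6 wild types and at 90.2, 110.5 and 95.7 CPM in the mutants. The 2 groups did not overlap, and the log2 fold change was 0.28 ± 0.090 (SE; edgeR adjusted p = 0.0425). Flt1 stood at 37.3, 39.5 and 45.9 CPM in wild type and 44.6, 57.2 and 53.7 CPM in mutants. Here mutant replicate 4 lay below the highest wild type, and the log2 fold change was 0.34 ± 0.112 (SE; edgeR adjusted p = 0.0460).

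The angiopoietin receptor gene Tek gave the smallest adjusted p of the 10. It stood at 30.1, 30.3 and 29.0 CPM in the C57BL/6 wild types and at 33.8, 38.2 and 39.4 CPM in the mutants, with no overlap. The log2 fold change was 0.32 ± 0.0802 (SE; edgeR adjusted p = 0.0162). Its partner Tie1 stood at 68.8, 77.5 and 75.1 CPM against 83.7, 83.7 and 91.6 CPM, also without overlap. The log2 difference of 0.23 ± 0.0797 (SE) missed the threshold (edgeR adjusted p = 0.0581).

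None of the junction genes passed. Cdh5 was at 109, 143 and 137 CPM in the C57BL/6 wild types against 146, 176 and 158 CPM in the mutants, which did not overlap, with a log2 difference of 0.31 ± 0.104 (SE; edgeR adjusted p = 0.0523). Pecam1 (0.25, adjusted p = 0.0930) and Esam (0.17, adjusted p = 0.234) overlapped between the groups. Cldn5 did not overlap, at 19.8 to 24.5 CPM in wild type and 24.7 to 29.6 CPM in mutants (log2 difference 0.28, edgeR adjusted p = 0.120). Emcn, the capillary sialomucin, was at 27.4 to 31.0 CPM against 32.3 to 36.4 CPM (log2 difference 0.24, edgeR adjusted p = 0.116). In all, 6 of the 10 genes were higher in all 3 C57BL/6 mutants than in any C57BL/6 wild type (Cdh5, Kdr, Tek, Tie1, Emcn and Cldn5), where 19.7% of all genes were separated in that direction and 21.9% in the other.

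Vwf had the widest spread. It stood at 44.5, 31.0 and 41.0 CPM in the C57BL/6 wild types and at 30.1, 45.4 and 59.6 CPM in the mutants, with a log2 difference of 0.21 ± 0.273 (SE; edgeR adjusted p = 0.605). Mutant replicate 4 had less Vwf than any wild type, and mutant replicate 6 more.

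The C57BL/6 calls did not hold in every fit. Tek alone of the 3 passed with only the groups compared, and with a covariate of Y-linked expression, fitted because the labels give no sex, Tek and Cldn5 passed and Kdr and Flt1 did not. No gene of the 10 passed without mutant replicate 5, and none without mutant replicate 6, while 1 passed without wild type replicate 1 (Tek), 2 without wild type replicate 2 (Cdh5 and Tek), 4 without wild type replicate 3 and 5 without mutant replicate 4. The share of all genes called moved from 23.9% to 13.8% without mutant replicate 5, 10.5% without mutant replicate 6, 13.3%, 20% and 22.3% without wild type replicates 1, 2 and 3, and 29.3% without mutant replicate 4. With libraries scaled to their total counts, which moved the median of all genes by -0.20 in log2, 0 of 10 passed and 8 of 10 stayed above 0. Of all genes called, 47.5% were higher in mutants as reported and 13.2% with total counts. With libraries scaled to the summed counts of 19 further endothelial genes, a scale chosen after seeing the data, each difference is relative to that sum. The 19 genes had a median difference of 0.21 themselves, and all genes moved by a median of -0.32. The sum includes Egfl7, at 185 CPM in mutant replicate 6 and at 64.2 and 60.1 CPM in mutant replicates 4 and 5. On that relative scale 0 of 10 passed, which does not bear on whether endothelial genes as a whole differed, and Flt1 was at 0.02, Kdr at -0.038 and Tek at -0.0127.

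On BALB/c the mutation moved none of the 10 past the threshold. The count was 0 of 10 by edgeR, where 0.136% of all genes passed, and also 0 by DESeq2 and by limma-voom. At an unadjusted p under 0.05 there were 2 of 10 by edgeR (11.7% of all genes), in opposite directions. Kdr had a log2 difference of 0.20 ± 0.0909 (SE; edgeR adjusted p = 0.416), at 72.2, 78.5 and 67.3 CPM in wild type and 83.2, 76.6 and 90.8 CPM in mutants. Emcn had one of -0.24 ± 0.105 (SE; edgeR adjusted p = 0.403), at 40.3, 33.8 and 31.2 CPM in wild type and 33.2, 26.3 and 29.8 CPM in mutants. The difference was above 0 for 5 of 10 genes, against 49.9% of all genes, and the 2 groups overlapped for 10 of 10, where 9.93% of all genes were separated upward and 10% downward. Vwf in BALB/c mutants was 79.0 CPM in replicate 16, the library rich in muscle and Schwann markers, and 43.4 and 38.9 CPM in the other 2. Its log2 difference of -0.20 became -0.58 without replicate 16 and stayed short of the threshold (edgeR adjusted p = 0.426).

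The test of the difference between the strains' genotype effects gave 0 of 10 by edgeR, where 10% of all genes passed. At an unadjusted p under 0.05 there were 4 of 10 (Pecam1, Cdh5, Tek and Emcn), against 29.5% of all genes. Emcn came nearest, with an interaction of -0.48 ± 0.148 (SE; edgeR adjusted p = 0.0619), and passed with DESeq2 (adjusted p = 0.0265), which called 17.5% of all genes. The interaction was below 0 for 10 of 10 genes, where 50.8% of all genes were above 0. The sign is relative to the scaling: total counts moved the median of all genes by 0.23, close to the size of the members' median of -0.24, and 5 of 10 were then above 0. Relative to the 19 further endothelial genes, a shift of 0.34 for all genes, 6 of 10 were above 0. Without C57BL/6 mutant replicate 4, Pecam1 and Emcn passed, 2 of 10 where 19% of all genes passed in that fit.

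Averaged over the strains, the mutation raised 1 of the 10 genes, Kdr, where 7.99% of all genes passed and 4.71% passed and were higher. Its log2 fold change was 0.24 ± 0.0641 (SE; edgeR adjusted p = 0.0408). Flt1 had 0.25 ± 0.0800 (SE; edgeR adjusted p = 0.0743) and Tek 0.18 ± 0.0569 (SE; edgeR adjusted p = 0.0717). The difference was above 0 for 9 of 10 genes, against 48.8% of all genes, the exception being Emcn at -0.001. With total counts, which moved all genes by a median of -0.08, 6 of 10 were above 0, and relative to the 19 endothelial genes, a shift of -0.15, 4 of 10. Kdr did not pass with total counts, with the Y-linked covariate or relative to the 19 genes (0.09), and it passed in 4 of 12 fits without a library.

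**Figure D2:**
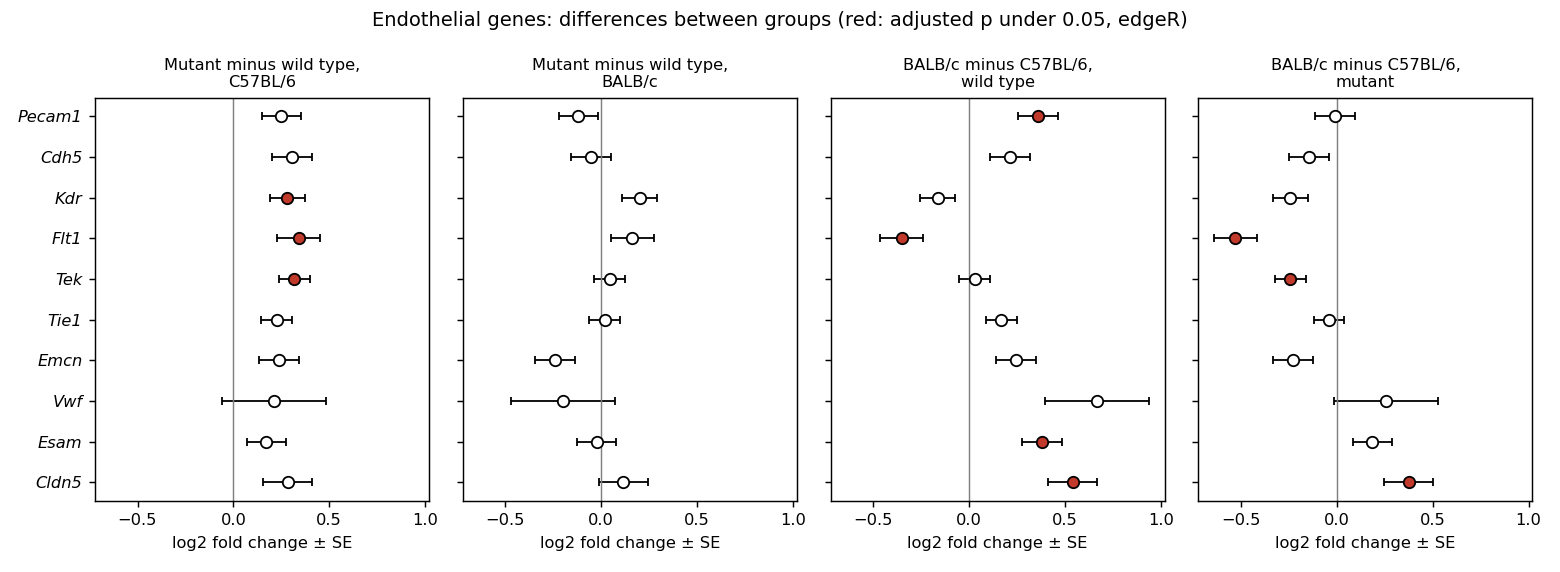
Log2 fold change ± SE of each of the 10 genes (rows) in 4 contrasts between groups of 3 samples, from edgeR. Red points passed at an adjusted p under 0.05: Kdr, Flt1 and Tek in C57BL/6 mutants, none in BALB/c mutants, Pecam1, Flt1, Esam and Cldn5 between wild types, and Flt1, Tek and Cldn5 between mutants.

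Between the wild types the strains differed in both directions. Of the 4 junction genes, Pecam1, Esam and Cldn5 were higher in BALB/c, by 1.28-, 1.30- and 1.46-fold, and Cdh5 did not pass (log2 difference 0.21, edgeR adjusted p = 0.111, with overlapping groups). Flt1 was lower, at 0.783 of its C57BL/6 level. Relative to the 19 further endothelial genes, which moved all genes by a median of -0.24, none of these 3 junction genes passed, with Pecam1 at 0.13, Esam at 0.14 and Cldn5 at 0.30, while Flt1 passed. These 4 of 10 compare with 48.5% of all genes that passed in this contrast, 22.8% higher and 25.6% lower. With total counts, no filter, only the groups compared or the Y-linked covariate 5 of 10 passed, where 44%, 38.3%, 46.2% and 42.9% of all genes did. Cldn5 stood at 24.5, 23.1 and 19.8 CPM in C57BL/6 and at 27.4, 35.7 and 35.0 CPM in BALB/c wild types, without overlap (log2 fold change 0.54 ± 0.128 SE, edgeR adjusted p = 0.00458). Flt1 stood at 34.3, 33.2 and 28.6 CPM in the BALB/c wild types, all below the 37.3 CPM of the lowest C57BL/6 wild type (log2 fold change -0.35 ± 0.114 SE, edgeR adjusted p = 0.0232).

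Pecam1 was at 83.7, 95.9 and 108 CPM in C57BL/6 and at 129, 123 and 116 CPM in BALB/c wild types (log2 fold change 0.36 ± 0.102 SE, edgeR adjusted p = 0.0127). Esam was at 29.5, 33.5 and 36.5 CPM against 49.0, 40.02 and 40.6 CPM (log2 fold change 0.38 ± 0.103 SE, edgeR adjusted p = 0.00958). Both were thus separated between the strains. So were Emcn and Vwf, which did not pass, with Vwf at 31.0 to 44.5 CPM against 58.2 to 67.4 CPM (log2 difference 0.67 ± 0.273 SE, edgeR adjusted p = 0.0620). Vwf passed in 3 of 9 alternatives, those with no filter, with only the groups compared and with the Y-linked covariate. In all 5 genes were separated upward in BALB/c, where 27.3% of all genes were, and 1 downward, where 30.1% were. Flt1 lost its call without C57BL/6 wild type replicate 3 or BALB/c wild type replicate 15, and Pecam1 without C57BL/6 wild type replicate 1.

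Between the mutants, Flt1 and Tek were lower in BALB/c and Cldn5 was higher, 3 of 10 where 36.9% of all genes passed (18% higher and 18.9% lower). Flt1 stood at 33.3, 34.3 and 40.01 CPM in BALB/c mutants against 44.6 to 57.2 CPM in C57BL/6 mutants (log2 fold change -0.53 ± 0.113 SE, edgeR adjusted p = 0.00329). It kept its call without each of the 6 libraries in turn. Tek was at 31.5, 30.7 and 32.0 CPM against 33.8 to 39.4 CPM (log2 fold change -0.24 ± 0.0800 SE, edgeR adjusted p = 0.0328), and Cldn5 at 41.3, 32.0 and 33.2 CPM against 24.7 to 29.6 CPM (log2 fold change 0.37 ± 0.126 SE, edgeR adjusted p = 0.0356).

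Those groups did not overlap for Flt1, Tek and Cldn5. Cdh5 was separated too, at 142.2 to 146.3 CPM in BALB/c against 146.5 to 176.0 CPM in C57BL/6 mutants, with a log2 difference of -0.15 (edgeR adjusted p = 0.297). That makes 3 genes separated downward, where 24.8% of all genes were, and 1 upward, where 25.4% were. Tek did not pass with total counts (-0.12, edgeR adjusted p = 0.294), which moved the median of all genes by 0.12, or relative to the 19 endothelial genes (-0.13), on which scale Cldn5 (0.47, edgeR adjusted p = 0.0517) did not pass either. Tek kept its call in 1 of the 6 fits without a library, the one without C57BL/6 mutant replicate 4, and Cldn5 in 3 of the 6, so that Flt1 alone passed without C57BL/6 mutant replicate 5 or BALB/c mutant replicate 16. Kdr had -0.24 ± 0.0903 (SE; edgeR adjusted p = 0.0533). The strain contrasts in wild types and in mutants use different libraries, but each shares a group with a genotype contrast.

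The balance among the 10 genes was described within each library, since a ratio of 2 genes in 1 library does not depend on its scaling. Flt1 divided by Cldn5, a pair chosen after its values were seen, was 1.52 to 2.32 in the 6 C57BL/6 libraries and 0.806 to 1.25 in the 6 BALB/c libraries. Flt1 divided by Kdr, the 2 VEGF receptors, was 0.480 to 0.561 against 0.400 to 0.476, again without overlap of the strains. Tek divided by Tie1 was 0.386 to 0.457 against 0.344 to 0.395, which overlapped. Within a strain, mutants and wild types overlapped in each of these 3 ratios. By share of the summed RPKM of the 10 genes, Flt1 made up 3.66% to 4.31% in C57BL/6 libraries and 2.45% to 3.29% in BALB/c libraries.

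**Figure D3:**
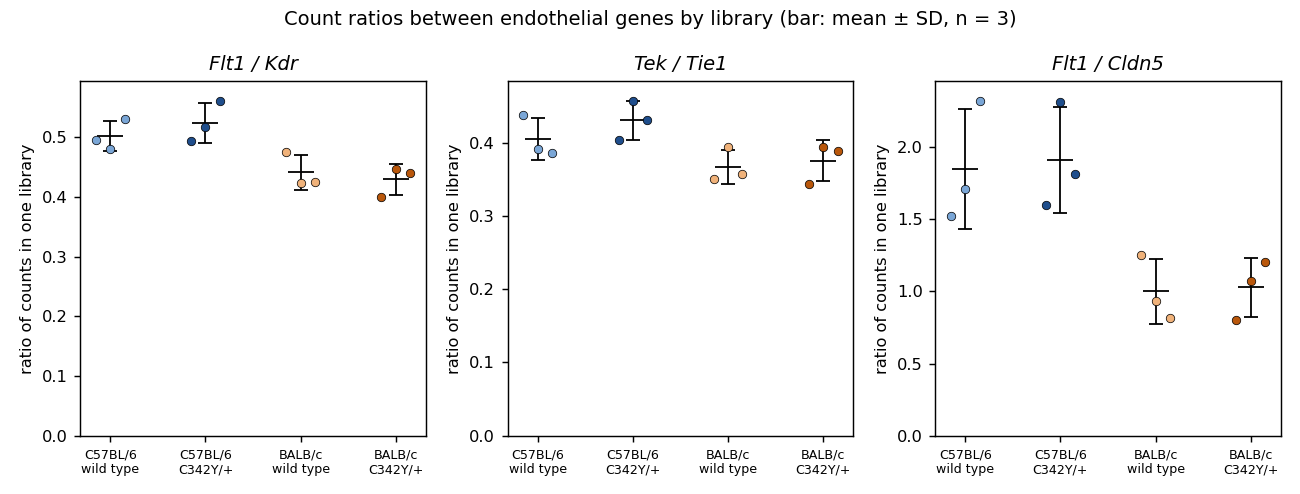
Ratio of the counts of 2 endothelial genes within each library (y axis from 0, no unit), for the 4 groups of 3 samples, with the mean ± SD. Flt1 over Kdr and Flt1 over Cldn5 separate the C57BL/6 libraries (1.52 to 2.32 for Flt1 over Cldn5) from the BALB/c libraries (0.806 to 1.25), and mutants overlap wild types within each strain.

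The ligands of the VEGF receptors were set beside them. Vegfa, which encodes the main ligand of both receptors, stood at 94.7, 102 and 113 CPM in C57BL/6 wild types and at 137, 135 and 138 CPM in C57BL/6 mutants. It rose by 0.41 ± 0.0694 in log2 (SE; edgeR adjusted p = 0.00259) and was at 93.7 to 107 CPM in all 6 BALB/c libraries. Its genotype effect differed between the strains (interaction -0.35 ± 0.0982 SE, edgeR adjusted p = 0.0436), a call kept in 2 of 12 fits without a library and in 4 of 8 other alternatives. The interaction was -0.13 with total counts (edgeR adjusted p = 0.328) and -0.02 with the 19 endothelial genes as the scale (edgeR adjusted p = 0.949). Of 8 genes of VEGF ligands and further receptors, 3 rose in C57BL/6 mutants and 0 fell, where 11.3% and 12.6% of all genes did: Vegfa, the lymphatic receptor gene Flt4 (0.32, adjusted p = 0.0227) and the coreceptor gene Nrp2 (0.27, adjusted p = 0.0399). With total counts, Flt4 (0.13, edgeR adjusted p = 0.337) and Nrp2 (0.08, edgeR adjusted p = 0.467) did not pass, nor with only the groups compared. Without 1 library at a time, the call was kept in 3 of 6 fits for Flt4 and 1 of 6 for Nrp2. With the 19 endothelial genes as the scale, none of the 3 passed, with Vegfa at 0.09, Flt4 at -0.00258 and Nrp2 at -0.0499.

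Of 5 genes of the angiopoietin pathway, which acts on the receptor made from Tek, 2 rose and 1 fell in C57BL/6 mutants. Of all genes, 11.3% passed and were higher in this contrast and 12.6% passed and were lower. Angpt2, whose product can block or activate that receptor, stood at 21.7, 23.9 and 24.7 CPM in wild type and 30.7, 34.0 and 36.3 CPM in mutants (log2 fold change 0.52 ± 0.0750 SE, edgeR adjusted p = 0.00103). Its genotype effect differed from that in BALB/c (interaction -0.65 ± 0.106 SE, edgeR adjusted p = 0.00542), where wild types had 36.1 to 39.0 CPM and mutants 32.3 to 35.7 CPM. With the 19 endothelial genes as the scale, neither the C57BL/6 difference of Angpt2 (0.20, edgeR adjusted p = 0.0914) nor its interaction (-0.30, edgeR adjusted p = 0.126) passed. Angpt1, which encodes the activating ligand, rose by 0.47 ± 0.135 (SE; edgeR adjusted p = 0.0271). Svep1, which encodes a large extracellular matrix protein that binds the receptor made from Tie1, fell by 0.66 in log2 (SE 0.0938, edgeR adjusted p = 0.000994), from 48.4 to 58.6 CPM in wild type to 32.7 to 35.0 CPM in mutants. Ptprb, the phosphatase that restrains these receptors, did not pass in C57BL/6 but was lower in BALB/c than in C57BL/6 mutants (-0.54, adjusted p = 0.00113).

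**Figure D4:**
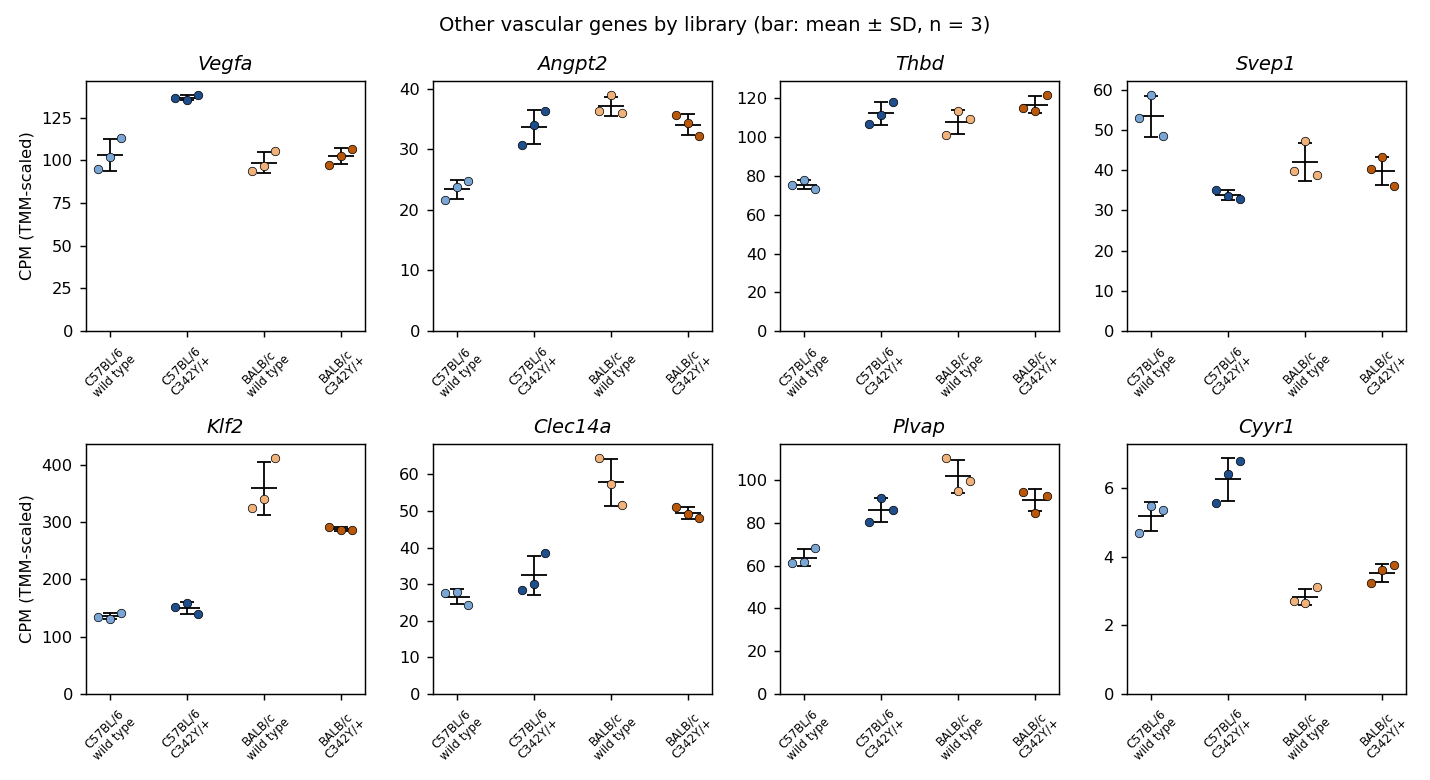
Level of 8 other vascular genes by library, in TMM-scaled CPM (linear axis from 0), with the mean ± SD of the 3 samples in each group. Vegfa is at 135 to 138 CPM in C57BL/6 mutants and at most 113 CPM in the other 9 libraries, Svep1 is lowest in C57BL/6 mutants, and Klf2 and Clec14a are higher in all BALB/c libraries than in any C57BL/6 library.

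Junction and adhesion partners of the members split by gene. In C57BL/6 mutants 4 of 12 rose (Jam2, Icam2, Rasip1 and Ctnnb1) and 1 fell (Jup, which encodes plakoglobin). Of all genes, 11.3% passed and were higher there and 12.6% passed and were lower. The groups overlapped for Jup, at 63.1 to 87.1 CPM in wild type and 49.7 to 68.5 CPM in mutants, and its call was kept in 2 of 6 fits without a library and not with only the groups compared (edgeR adjusted p = 0.136). Jam2 did not pass with only the groups compared (edgeR adjusted p = 0.0700) or with the 19 endothelial genes as the scale (0.15, edgeR adjusted p = 0.196). Ctnnb1, the gene of beta-catenin, which binds VE-cadherin, rose by 0.44 ± 0.0628 (SE; edgeR adjusted p = 0.000971), and beta-catenin is made in most cell types. Between wild types 11 of 12 passed, 4 higher and 7 lower in BALB/c, where 48.5% of all genes passed, 22.8% higher and 25.6% lower, with Rasip1 at 0.56 (adjusted p = 5.27e-05) and the afadin gene, listed as Mllt4, at -0.69 (adjusted p = 5.73e-05). Ocln, at -3.09, had 2.52 to 5.30 CPM in C57BL/6 wild types and 0.371 to 0.469 CPM in BALB/c wild types, and it was also lower in the C57BL/6 mutants that had few olfactory markers, at 0.242 and 0.215 CPM in replicates 5 and 6. Whether nasal epithelium set this difference was not tested.

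Of 19 further genes known for endothelial expression, 17 had a difference above 0 in C57BL/6 mutants, against 49.3% of all genes, with a median of 0.21. Of the 19, 3 rose, where 11.3% of all genes passed and were higher. Plvap, the gene of the diaphragm protein of fenestrated vessels, rose by 0.43 ± 0.0738 (SE; edgeR adjusted p = 0.00255), and the sphingosine receptor gene S1pr1 rose by 0.53 ± 0.124 (SE; edgeR adjusted p = 0.0111). Egfl7 rose by 1.16 ± 0.339 (SE; edgeR adjusted p = 0.0293), but mutant replicate 6 had 185 CPM where the other 2 mutants had 64.2 and 60.1 CPM and the wild types 38.4 to 50.4 CPM. Without that library the log2 fold change was 0.43 and passed (edgeR adjusted p = 0.0432), while it missed the threshold without any one of the 3 wild types. Between wild types 5 of the 19 were higher and 3 lower in BALB/c, where 22.8% of all genes passed and were higher and 25.6% lower. The largest change each way was that of Clec14a at 1.12 (edgeR adjusted p = 2.20e-05) and Cyyr1 at -0.87 (edgeR adjusted p = 0.000639).

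The transcription factors of endothelial cells went in both directions. In C57BL/6 mutants 2 of 15 rose (Klf4 and Mef2c) and 5 fell (Erg, Tal1, Lyl1, Gata2 and Lmo2), where 11.3% of all genes passed and were higher and 12.6% passed and were lower. Of these factors Tal1, Lyl1, Gata2 and Lmo2 are also known from blood cell precursors. Klf4 did not pass with the 19 endothelial genes as the scale (0.31, edgeR adjusted p = 0.0676), nor Gata2 with only the groups compared (edgeR adjusted p = 0.0510). Erg, an ETS factor of endothelium and of cartilage, stood at 37.2, 37.5 and 44.2 CPM in wild type and 25.2, 27.2 and 22.6 CPM in C57BL/6 mutants, and fell by 0.66 in log2 (SE 0.0968, edgeR adjusted p = 0.00116). On BALB/c Erg was at 43.9 to 54.1 CPM in wild type and 33.8 to 37.1 CPM in mutants, without overlap, and did not pass. Averaged over the strains its log2 fold change was -0.55 (SE 0.0682, edgeR adjusted p = 0.00185), a call kept in 12 of 12 fits without a library. Klf2, a factor induced by flow, was higher in BALB/c wild types, at 324 to 413 CPM against 131 to 141 CPM (log2 fold change 1.41 ± 0.0869 SE, edgeR adjusted p = 7.18e-07), and Sox18 by 1.14 (adjusted p = 1.49e-05). Klf2 and Klf4 are also expressed in many other cells.

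Between the mutants, the same lists again split by gene. Vegfa (-0.42, edgeR adjusted p = 0.000676) and Ptprb (-0.54) were lower in BALB/c mutants, as were Cyyr1 (-0.82) and the factor gene Mef2c (-0.64), while Clec14a (0.61) and Lyl1 (1.81) were higher. Of 12 junction genes 1 was higher and 6 lower, of 19 further endothelial genes 3 were higher and 4 lower, and of 15 factors 8 were higher and 3 lower, where 36.9% of all genes passed, 18% higher and 18.9% lower. The genotype effect differed between the strains for Plvap (interaction -0.60, edgeR adjusted p = 0.00739), Jam2 (-0.76, edgeR adjusted p = 0.0141), Tfpi (-0.63, edgeR adjusted p = 0.0214) and Cxcr4 (1.03, edgeR adjusted p = 0.00663). Relative to the 19 endothelial genes, of which Plvap is itself 1 and which moved all interactions by a median of 0.34, the interaction did not pass for Plvap (-0.26, edgeR adjusted p = 0.177), Jam2 (-0.41, edgeR adjusted p = 0.0641) or Tfpi (-0.29, edgeR adjusted p = 0.298), and for Tfpi it did not pass with total counts either (-0.40, edgeR adjusted p = 0.0786). Plvap stood at 61.2 to 68.2 CPM in C57BL/6 wild types, 80.3 to 91.7 CPM in C57BL/6 mutants, 95.0 to 110.4 CPM in BALB/c wild types and 84.7 to 94.6 CPM in BALB/c mutants.

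The remaining vascular lists were compared between C57BL/6 mutants and wild types, where, as above, 11.3% of all genes passed and were higher and 12.6% passed and were lower, about 1 gene of 8 in each direction. Among 7 genes of haemostasis and granules, Thbd, the thrombomodulin gene, rose by 0.57 ± 0.0588 (SE; edgeR adjusted p = 0.000209) and Tfpi by 0.44 ± 0.101 (SE; edgeR adjusted p = 0.0102), while Selp, held in the same granules as von Willebrand factor, did not pass. Of 7 genes of tip cells, the leading cells of vessel sprouts, 3 rose (Angpt2, Pdgfb and Unc5b) and 1 fell (Cxcr4, -0.61, adjusted p = 0.00604). Of 8 arterial genes 1 rose (Jag1), of 8 venous and sinusoidal genes 1 rose (Nrp2), of 5 tested lymphatic genes 1 rose (Flt4), of 7 basement membrane genes 1 fell (Nid2), and of 12 hypoxia genes 2 rose (Vegfa and Ndrg1). Jag1 rose by 0.36 in log2 and did not pass with total counts (0.16, edgeR adjusted p = 0.116) or with the 19 endothelial genes as the scale (0.03, edgeR adjusted p = 0.796). Thbd did not pass with the latter scale (0.24, edgeR adjusted p = 0.0770). Ccl21a, a sixth lymphatic gene, was listed at 0 counts in all 12 libraries. In BALB/c mutants 0 genes of each of these 12 vascular lists passed by edgeR, with 0 to 6 genes of a list at an unadjusted p under 0.05. The 6 were among the 15 transcription factors, where 11.7% of all genes had such a p.

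Markers of other cell types were read in the same libraries, where in C57BL/6 mutants 11.3% of all genes passed and were higher and 12.6% lower. Megakaryocytes also make Pecam1 and Vwf: of 9 tested megakaryocyte markers 7 fell in C57BL/6 mutants and 0 rose, and the sum of 10 was 30.7 to 39.7 CPM in wild type, 15.6 to 19.9 CPM in C57BL/6 mutants, 37.5 to 46.0 CPM in BALB/c wild type and 49.6 to 68.5 CPM in BALB/c mutants. Pf4, a defining megakaryocyte gene, was at a mean of 7.41 CPM in C57BL/6 wild types and 4.06 CPM in C57BL/6 mutants. The part of megakaryocytes in the levels of Pecam1 and Vwf was not tested. In BALB/c mutants the marker sum was highest in replicate 16, which also had the highest Vwf of all libraries.

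Mural cells, which wrap vessels, showed no common shift: of 11 markers 2 rose in C57BL/6 mutants (Pdgfrb and Notch3) and 1 fell (Tagln), and their sum was 1033 to 1121 CPM in wild type and 1039 to 1108 CPM in mutants. The counts of this paragraph compare with 11.3% of all genes that passed and were higher and 12.6% that passed and were lower. Of 7 tested erythroid markers 5 fell in C57BL/6 mutants, with sums of 182 to 248 CPM in wild type and 47.04 to 76.0 CPM in mutants. Of 6 macrophage markers 2 rose, Csf1r from a mean of 203 to 344 CPM and Cd68 from 74.2 to 141 CPM. The other 4 did not pass, with log2 differences of -0.096 (Mrc1) to 0.20 (C1qa). The sum of the 6, at 301 to 380 CPM against 512 to 590 CPM, thus rose through Csf1r and Cd68. Of 8 osteoblast markers 6 rose and 0 fell, of 7 chondrocyte markers 3 fell and of 7 tested olfactory and ciliated markers 3 fell. C57BL/6 mutant replicate 4, which had the highest olfactory sum of its group, also had the lowest Pecam1, Cdh5, Kdr, Flt1, Tek, Emcn, Vwf and Esam of its group. The part of tissue composition in the C57BL/6 differences of the 10 genes was not tested.

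**Figure D5:**
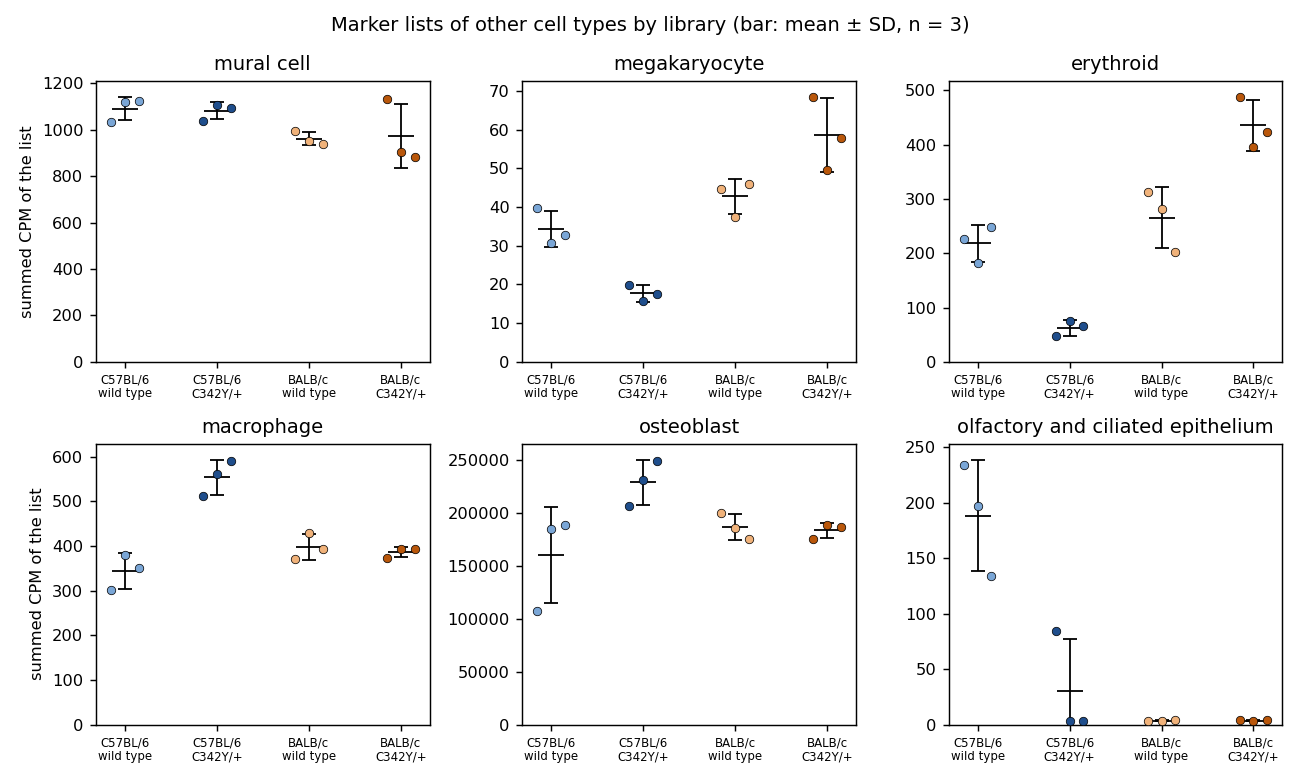
Summed CPM of marker lists of 6 other cell types by library (linear axes from 0), with the mean ± SD of the 3 samples in each group. Megakaryocyte and erythroid sums are lowest in C57BL/6 mutants (15.6 to 19.9 and 47.04 to 76.0 CPM). Macrophage and osteoblast sums are highest there, the first through Csf1r and Cd68 and the second mostly through Col1a1 and Col1a2. Mural sums overlap between C57BL/6 groups, and olfactory sums are above 80 CPM in 4 of the C57BL/6 libraries.

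The genes whose pattern over the 12 libraries was most like the mean pattern of the 10 were found by the root mean square difference between centred and scaled log2 CPM profiles, among 13868 candidates. The 10 nearest were Mgat1, Slc29a1, Lipa, Fam198b, Ergic2, Fabp3, Dhrs1, Yap1, Aldh9a1 and Sh3glb1, at differences of 0.348 to 0.466, against a median of 1.33 over all candidates. None of the 10 nearest is in the lists used here. Mgat1 had means of 92.6 ± 10.3, 118 ± 5.23, 112 ± 5.69 and 107 ± 6.43 CPM (SD, n = 3) in C57BL/6 wild type, C57BL/6 mutant, BALB/c wild type and BALB/c mutant. Of the 10 endothelial genes themselves, Tie1 (0.391) and Cdh5 (0.451) were nearest to their common mean and Flt1 (1.09) and Cldn5 (1.09) farthest, though each gene is part of that mean. Of the 19 further endothelial genes, 1 was among the nearest 100 candidates, and their median rank was 1271.

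The authors' deposited table of comparisons gave the same direction for Kdr, Flt1 and Tek in C57BL/6 mutants, with log2 fold changes of 0.27, 0.32 and 0.30, and no q-value under 0.05 for any of the 10 (0.0852 for Tek). For the wild type strain contrast, taken there as C57BL/6 minus BALB/c, the authors' deposited table gave q-values under 0.05 for Pecam1 (-0.37), Vwf (-0.58), Esam (-0.38) and Cldn5 (-0.51), and a q-value of 0.0918 for Flt1 (0.33). For the mutant strain contrast, the authors' deposited table gave a q-value under 0.05 for Flt1 alone of the 10 (0.50, q = 0.00904).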

How the data were processed

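Sequencing of mRNA from 12 samples in 4 groups was analysed from the deposited gene table. The authors deposited raw counts for 23358 genes together with RPKM values and coding lengths. The deposited RPKM values equalled the count divided by coding length and by 1 total per library, of which the gene counts made up 75.6% to 88.0%, and they served only for that check. All deposited counts were even (0 odd values). Per the submitters' processing notes, bcl2fastq, TopHat2 2.0.6, HTSeq, DESeq2 and the build mm10 were used, and counting options are not given in the sources used here. The authors also deposited log2 fold changes and q-values of 4 comparisons, per the file headers. Of the value columns, 0 belonged to no sample of the series.

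Counts were fitted with edgeR 4.0.16 in R 4.3.3 (filterByExpr with a minimum count of 10 and a minimum total of 15, TMM, quasi-likelihood F test, 1 mean per group over all 12 samples), and p-values were adjusted by Benjamini-Hochberg over 16190 genes, with calls at an adjusted p under 0.05. The SE is the size of the log2 fold change divided by the square root of F. The levels are CPM on the TMM-scaled library size, and RPKM divides them by coding length. Log2 CPM used a prior count of 2. Of the symbols shared with GENCODE M21 (20886), 99.5% overlapped in position. Of the listed genes, 3 were not matched.

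All members were named. From each vascular list, genes were named by the rule of the called gene with the largest change in each direction with a mean of at least 1 CPM, and other genes of a list where its pathway is described. Not all genes this rule gives are printed. Genes of other cell types and Flt1 over Cldn5 were chosen after their values were seen. The members and lists were chosen with earlier results of these data known. The alternatives were DESeq2 1.42.0, limma-voom (limma 3.58.1), RLE factors, total counts, no filter, halved counts, only the groups compared, a covariate of Y-linked expression, each library left out, and a scale of the summed counts of 19 further endothelial genes. Scripts were tested on simulated data.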

Additional observations from a re-analysis of the deposited data

Results flagged for a closer look

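For 11 other vascular genes, those with the largest called change in each direction in their lists, the genotype effect differed between the strains by the test of the difference itself (edgeR interaction, adjusted p under 0.05). Further genes of the lists also passed and are not given here. The interaction, BALB/c minus C57BL/6 in log2, was below 0 for Angpt2 (-0.65), Jam2 (-0.76), Klf4 (-0.71), Pdpn (-0.60), Plvap (-0.60), Tfpi (-0.63) and Vegfa (-0.35). It was above 0 for Cxcr4 (1.03), Gata2 (2.18), Reln (2.66) and Svep1 (0.58). Relative to the 19 further endothelial genes, which include Plvap and moved all interactions by a median of 0.34, none of the 7 below 0 passed. Without 1 library at a time, the call was kept in 2 of 12 fits for Vegfa, 3 for Reln, 4 for Pdpn, 5 for Klf4, 8 for Svep1, 9 for Gata2, 10 for Tfpi and 12 for Angpt2, Jam2, Plvap and Cxcr4. Reln was also lost with limma-voom, RLE factors and the Y-linked covariate, Pdpn with total counts and the Y-linked covariate, and Klf4 with the Y-linked covariate. None of the 10 endothelial genes passed this test.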

How the results depend on the processing

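The number of the 10 genes called in C57BL/6 mutants, 3 in the fit reported, was 5 with DESeq2, 1 with only the groups compared, 0 with total counts and 0 with the scale of 19 further endothelial genes, where 27.8%, 9.21%, 28.9% and 33.4% of all genes were called. For the interaction, 0 became 1 with DESeq2. For the genotype effect averaged over strains, 1 became 3 with DESeq2, and 0 with total counts, 0 with the Y-linked covariate and 0 with the 19 genes as the scale. With that scale, which was added after seeing the data and lowered the median of all genes by 0.32 in the C57BL/6 genotype contrast, the strain contrasts called 2 of 10 in wild type (Kdr and Flt1) and 1 of 10 in mutants (Flt1). It also turned the C57BL/6 genotype difference of Kdr to -0.038, Tek to -0.0127, Nrp2 to -0.0499 and Flt4 to -0.00258. These stood at 0.28, 0.32, 0.27 and 0.32 in the fit reported, so they moved about as far as all genes did. The scale is the summed counts of the 19 genes and shifts all genes together. That sum includes Egfl7, at 185 CPM in C57BL/6 mutant replicate 6 and at 64.2 and 60.1 CPM in replicates 4 and 5. A scale without Egfl7 was not tested, nor was the cause of the moves with other settings. Leaving out 1 library at a time gave 0 to 5 calls in C57BL/6 mutants, 0 in BALB/c mutants, 3 to 5 between wild types, 1 to 3 between mutants, 0 to 2 for the interaction and 0 to 3 for the average. In the fits without a library that arm has 2 samples.

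Of 520 values of the 10 genes under the other alternatives, 486 gave the same call, 17 lost a call, 15 gained one and 2 that were called turned in sign; over all 520, called or not, 48 turned in sign. Of 480 values with a library left out, 438 gave the same call, 29 lost, 13 gained and 0 that were called turned in sign, while 24 turned over all 480. The number of all genes called moved by over 1.5 times in these contrasts: 3867 in C57BL/6 mutants against 1458 with only the groups compared, 22 in BALB/c mutants against 323 with DESeq2, 44 with limma-voom, 71 with only the groups compared, 4 with total counts or the Y-linked covariate and 2 with the 19 genes as the scale, 1626 for the interaction against 2707 with DESeq2, 1294 for the average against 2203 with DESeq2, 835 with the Y-linked covariate and 403 with the 19 genes as the scale. Between mutants it was 5968 against 3898 with the 19 genes as the scale. Without 1 library at a time, the number of all genes called ran from 1724 (without mutant replicate 6) to 4833 (without mutant replicate 4) in C57BL/6 mutants, from 0 (without wild type replicate 13 or 15) to 95 (without wild type replicate 14) in BALB/c mutants, from 624 to 3129 for the interaction (without C57BL/6 mutant replicates 6 and 4) and from 493 (without BALB/c mutant replicate 18) to 2621 (without C57BL/6 mutant replicate 4) for the average. The share of called genes that were higher was 47.1% between wild types, 48.8% between mutants, 54.4% for the interaction and 59.0% for the average, against 31.2%, 67.8%, 90.5% and 33.1% with total counts and 15%, 64.1%, 98.3% and 12.9% with the 19 genes as the scale, which gave 3.64% in C57BL/6 mutants. Restricting the fit to the groups compared leaves fewer samples to estimate the spread. No paired analysis was possible because the groups share no replicate numbers. With at least 730 counts of each member in each library, the SE of the C57BL/6 genotype difference ran from 0.0797 (Tie1) to 0.273 (Vwf) in log2.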
